A study of Vitis vinifera with 24 samples.

Results

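The 200 grapevine probes described here rose in Sangiovese berries between the beginning of veraison (BV) and the end of veraison (EV), and rose again between EV and harvest (H). They were chosen on their measured values from the 117999 grapevine probes of the array. On the log2 scale of the fluorescence intensity, the mean of the 6 arrays at BV was taken from the mean of the 6 arrays of defoliated vines at EV to give the first step, and this mean at EV was taken from the median of the 9 arrays at H to give the second step. Both steps had to reach 0.5, which 4194 probes (3.55%) did, and the 200 with the largest smaller step were kept. The 3 control arrays at EV played no part in the choice. Since the same values chose the probes, their rise is described here without a test.

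Veraison marks the onset of ripening in the grape berry, when the berry softens, imports and stores hexose sugars, begins to lose malic acid and, in red cultivars such as Sangiovese, starts to colour as anthocyanins are laid down in the skin. Transcripts that keep climbing until harvest are known in grapevine from several of these processes, among them anthocyanin synthesis, loosening of the cell wall and defence against pathogens, and they differ from transcripts that switch on at veraison and then stay level. The deposited identifiers name probes, and no table used here pairs them with genes. The pathways of the 200 probes were therefore not analysed here, and the labelled tissue, berry without seeds, was not checked against marker genes.

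The berries came from adult field-grown vines of the same Sangiovese clone and rootstock. Control vines (C) kept their leaves, pre-bloom defoliated vines (PB) lost by hand the main and lateral leaves of 6 basal nodes at Julian day (JD) 147, and veraison defoliated vines (V) lost the same leaves at JD 211. Each of the 24 one-colour arrays held the RNA of berries pooled from 3 vines of a block, with 3 arrays for each of 8 groups, namely C and PB at BV, EV and H and V at EV and H. No V berries were taken at BV, and C at BV is used below as their start. According to their labels, the 6 arrays of C at EV and H belong to an experiment on cluster thinning and the other 18 to the one on defoliation, so that from EV onwards being a control and being in the other label set cannot be told apart.

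The array also carried 19091 probes of random sequence, which serve as negative controls. Their mean log2 intensity, here termed the random-probe level, was 7.15 and 6.73 on C at EV replicates 1 and 3 and between 5.77 and 6.56 on the other arrays. The array median over the grapevine probes lay between 8.10 and 8.49. At EV the group mean of the random-probe level was 6.73 in C and 5.94 in PB and V. A difference from C at EV described below therefore cannot be fully told apart from this difference in level. The level was added to the model, as given with the comparison, but this cannot separate them, since the level itself differed between C and the others. The part of the level was not tested in any other way.

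At BV the 200 probes were dim, with a median log2 intensity of 7.54 (5.30 to 10.69), below the median of 8.46 over all grapevine probes. At EV in the defoliated berries their median was 9.42 (6.74 to 12.12) and at H it was 11.61 (8.49 to 14.39), above the 8.41 of all probes. The rise therefore took them from the darker to the brighter part of the array. The first step had a median of 1.76 (1.39 to 3.36), or 3.40-fold, and the second a median of 1.90 (1.39 to 4.44), or 3.74-fold, where the medians over all grapevine probes were 0.01 and 0.04. From BV to H the probes rose by a median of 3.86 on the log2 scale, or 14.5-fold, and the range ran from 7.26-fold to 84.1-fold.

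Each array was also read against the 95th percentile of its own random-sequence probes. At BV between 53 and 138 of the 200 exceeded it on a given array, 36 on all 6 arrays (52.6% of all grapevine probes did) and 35 on none (26.9% of all). In PB and V at EV, 140 exceeded it on all 6 arrays (53.6% of all) and 0 on none (31.2% of all). At H 169 exceeded it on all 9 arrays (36.9% of all) and 0 on none (26.8% of all). In C at EV, where the percentile itself was high, 60 exceeded it on all 3 arrays (23.8% of all) and 66 on none (48.6% of all). An intensity near background follows the transcript level poorly, so the first step of such probes is given as measured. Under the same rule 64 of the 19091 random-sequence probes (0.335%) passed both minimum steps, the largest smaller step among them was 1.09, and 0 reached the level of the last probe kept.

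The median of the 200 probes on each array showed the same ladder in every treatment. At BV it was 7.05, 7.83 and 7.35 on the 3 C arrays and 7.95, 7.04 and 7.95 on the 3 PB arrays. At EV it was 9.73, 9.22 and 9.23 for C, 9.88, 9.25 and 8.96 for PB and 10.53, 8.74 and 9.43 for V. At H it was 11.48, 11.77 and 11.32 for C, 11.85, 11.91 and 11.53 for PB and 11.52, 11.55 and 11.78 for V. The array medians of the 3 stages did not overlap, and at BV and H the treatments overlapped. When each probe's path from its BV level (0%) to its H level (100%) was used as a scale, the median probe at EV lay at 43.1% ± 6.08 (SD, n = 3) in C berries, at 45.5% ± 11.2 in PB berries and at 49.3% ± 21.4 in V berries. The groups overlapped on this scale, although V and C differed by slightly more than the SD of C. The PB and V arrays set the EV level of these probes and the C arrays did not, and on C replicate 1 the quartiles of the probes lay at 8.32% and 83.5%.

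The steps of most of the 200 were of similar size. The second step was the larger in 124 probes and the first in 76, and in 116 the steps were within 0.5 of each other. The second exceeded the first by 1 or more in 39 probes and the first exceeded the second by as much in 10. A group of 27 probes climbed by at least 2 on the log2 scale in each step. At the limit of the selection the last probe kept had means of 8.85 at BV and 10.24 at EV and a median of 12.86 at H, with a first step of 1.39 and a second of 2.62. The first probe left out, with 8.03, 9.43 and 11.71, had steps of 1.39 and 2.29, and thus differed from it in the first step only beyond the decimals shown.

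Replicates blurred these steps for most probes taken singly. In 97 of the 200 every BV array lay below every PB and V array at EV, against 2.8% of all grapevine probes, and in 105 every PB and V array at EV lay below every H array, against 5.73%. Both held in 59 (0.302% of all probes) and neither in 57. From BV to H, leaving EV aside, the arrays were separated in 179 of the 200, against 8.58% of all probes. These counts describe the choice, because the arrays counted are those that chose the probes.

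The probe with the largest smaller step was VitusP00064501, with steps of 3.06 and 3.33. At BV its log2 intensity was 5.63, 6.74 and 6.42 in C and 6.35, 5.61 and 6.58 in PB, close to the random-probe level and below the 95th percentile of the random-sequence probes on all 6. At EV it was 9.87, 8.56 and 8.33 in PB, 11.87, 8.47 and 8.59 in V and 6.51, 9.30 and 6.99 in C. At H it reached 12.62, 12.00 and 12.00 in C, 12.17, 12.10 and 12.62 in PB and 12.93, 12.98 and 13.19 in V. The probe was thus at background at BV and bright on all 9 arrays at H, while at EV V replicate 1 stood above the other 8 arrays and C replicates 1 and 3 lay within or just above the range of BV. The difference between the PB and V mean and C at EV was 1.68 (standard error 0.63) and missed the threshold (limma, adjusted p = 0.0389).

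VitusP00223606, the next by the same measure, climbed more in the first step (3.36) than in the second (2.79). It read 6.31, 7.61 and 6.43 in C and 6.84, 5.47 and 7.51 in PB at BV. At EV it read 12.20, 8.08 and 10.78 in C, 10.61, 9.79 and 9.10 in PB and 12.11, 9.47 and 9.28 in V, and at H it lay between 12.26 and 13.12 on all 9 arrays. In contrast to the probe before it, the C arrays at EV ran from 8.08 to 12.20, a range that held all 6 defoliated arrays, and the fitted difference at EV was -0.29 (standard error 0.70, limma adjusted p = 0.768). It forms a run of 4 consecutive rows with 3 others of the 200, and in those the fitted difference at EV was 1.41, 0.94 and 2.19, of which only the last was called (limma, adjusted p = 0.00394).

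The treatment series could also be read on their own. In PB, 197 of the 200 rose in both steps (24.9% of all grapevine probes did) and 170 rose by at least 1 in each, with median steps of 1.62 and 2.23. In V, starting from C at BV, 198 rose in both steps (26.7% of all) and 186 by at least 1, with medians of 1.98 and 1.88. C, whose EV arrays had not been used, had 160 of 200 rising in both steps (15.6% of all probes) and 98 rising by at least 1, with medians of 1.81 and 2.31. The C count lay between 144 and 170 when each EV array of C was left out in turn. BV and H arrays of all treatments entered the choice, so that only the level at EV is free in the C series.

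At EV the C mean lay between the BV and H levels in 166 of the 200 probes (83.0%), against 12.4% of all grapevine probes and 58.2% of the 4194 that passed both minimum steps. The C mean was below the BV level in 31 and above the H level in 3. The choice gave each of the 200 a rise from BV to H of at least 2.86, where the median steps over all probes were 0.01 and 0.04. A wider span holds more values, so the shares of all probes here and in the next sentence are not a like comparison. All 3 C arrays stood above every BV array in 108 probes, against 15.3% of all probes, and below every H array in 124, against 5.95%. Of the 166, 58 exceeded the 95th percentile of the random-sequence probes on all 3 C arrays and 40 on none, so that a value between BV and H was not in each case above background. Relative to the mean of PB and V at EV the C mean differed by a median of -0.05, with quartiles of -1.31 and 0.69 and extremes of -3.73 and 2.18, and 101 probes were higher in PB and V while 99 were lower. The size of the difference, whatever its sign, had a median of 0.98 in the 200 probes and 0.79 in all grapevine probes.

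The mean of PB and V was compared with C at EV by limma over all 24 arrays with a mean for each group. Calls required an adjusted p (Benjamini-Hochberg) under 0.02 as well as a log2 difference of 1 or more in size. This called 37 of the 200 probes (18.5%), where 28.4% of all grapevine probes were called. Of the 37, 28 were higher in PB and V (16.0% of all probes were called in this direction) and 9 were lower (12.4% of all). At an unadjusted p below 0.05 there were 84 (42.0%), against 48.7% of all probes. In this fit the share among the 200 was thus below that of the array, and the PB and V arrays at EV had been used to choose them. The median standard error was also larger in the 200 (0.52) than in all probes (0.42). With array weights the share was slightly above that of the array (47.0%, against 45.7%). With median centring and MAD scaling of the arrays 38 were called (19.0%, against 30.1% of all probes), 23 higher and 15 lower.

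In the 28 probes called higher in PB and V, the C median did not rise between BV and EV. It was 6.98 at BV, 6.75 at EV and 11.11 at H, whereas the PB median was 7.31, 9.07 and 10.97 and the V median 9.35 at EV and 11.25 at H. The difference at EV had a median of 2.17 (1.39 to 3.73). In C at EV, 22 of these 28 exceeded the 95th percentile of the random-sequence probes on no array and 0 on all 3, so the size of the difference rests on values near background. With each C array held at no less than its random-probe level it had a median of 1.74 (0.48 to 3.01). In the 9 probes called lower, C berries had almost reached their harvest level by EV, with medians of 7.28 at BV, 10.90 at EV and 11.15 at H, against 7.88, 9.12 and 11.46 in PB and 9.17 and 10.94 in V at EV and H. Their difference at EV ran from -1.04 to -2.18 with a median of -1.47. At harvest the medians of both groups lay between 10.94 and 11.46 in all 3 treatments. The C mean at EV was at most 8.27 in the probes called higher and at least 9.86 in those called lower. Both groups were picked by their difference from C at EV. The choice of probes had already set PB and V at EV above BV and below H. A C level near BV in the probes called higher, and near H in those called lower, therefore follows largely from this picking. The split in the C mean follows from it in part. These C levels are given as a description and not as a separate finding on C berries.

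Among the arrays at EV those of C had the highest random-probe level (7.15, 6.31 and 6.73, against 5.90 to 6.00 in PB and V) and, over all grapevine probes, a root mean square SD between replicates of 1.01, against 0.45 in PB and 0.42 in V. In a model that held the random-probe level as a further term, limma called 0 of the 200 probes and 6 of all grapevine probes. At an unadjusted p below 0.05 there were 25 of the 200, and the share of all probes is not given. The level differed between C and the other groups at EV, so this term overlaps with the comparison. Such a model loses precision for every probe, and the lost calls do not decide what made the difference. By the SAM statistic with all label permutations 17 of the 200 (8.5%) were called, 16 higher and 1 lower, against 17.5% of all probes. The count was 14 without C at EV replicate 1 (13.5% of all probes called), 61 without replicate 2 (38.5%) and 12 without replicate 3 (18.3%).

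The largest difference at EV was that of VitusP00021494. In C berries it read 7.30, 7.87 and 7.99 at BV, 5.44, 6.35 and 5.86 at EV and 11.74, 11.65 and 11.06 at H. In PB berries it read 8.40, 7.20 and 8.19 at BV, 10.24, 9.93 and 9.01 at EV and 12.18, 11.61 and 11.64 at H, and in V berries it read 11.08, 8.20 and 9.21 at EV and 11.74, 11.87 and 12.22 at H. All 3 C arrays at EV lay below all BV arrays and below the 6 PB and V arrays, and the harvest arrays of the treatments overlapped. The difference was 3.73 (standard error 0.45, limma adjusted p = 1.53e-05), and 3.04 (adjusted p = 0.106) with the random-probe level in the model. At EV the probe was below the random-probe level on 2 of the 3 C arrays. The probes in the adjoining rows, both among the 200, were also called, with differences of 2.15 and 2.34.

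The opposite extreme was VitusP00244099. In C it read 5.32, 8.34 and 7.89 at BV, 12.09, 9.68 and 11.50 at EV and 10.74, 11.14 and 10.49 at H. In PB it read 8.45, 6.88 and 7.73, then 9.93, 9.46 and 7.96, then 10.84, 10.90 and 11.17, and in V it read 9.83, 7.49 and 8.78 at EV and 10.67, 10.75 and 10.40 at H. C at EV replicates 1 and 3 stood above every harvest array, while replicate 2 fell within the range of PB and V. The difference was -2.18 (standard error 0.63, limma adjusted p = 0.0100) and was no longer called without C at EV replicate 1 (-1.68) or replicate 3 (-1.98), nor without PB at EV replicate 3 or V at EV replicate 2. The 2 other probes of its run among the 200 differed the other way. The difference was 0.59 in the adjoining row, which was not called, and 2.07 in the row beyond (limma, adjusted p = 0.00710). Probes of the same run were thus not alike at EV in C.

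Within the other stages the treatments were compared in the same model. Between PB and C at BV 0 of the 200 probes were called (0.0% of all probes), with 6 (3.0%, against 0.728% of all) at an unadjusted p below 0.05. The model pooled the spread of all 8 groups. The root mean square SD over all probes was 0.52 in C and 0.45 in PB at BV, against 1.01 in C at EV. Few low p values at BV therefore do not show likeness. With only the compared groups in the limma fit, 14 of the 200 had an unadjusted p below 0.05 and 0 were called. SAM called 0. As run here, it counted the observed labels and their mirror among the permutations. With 3 arrays against 3 it could then not reach a false discovery rate of 2%, so this count was fixed in advance. The median difference was 0.15, and 128 of the 200 were higher in PB. The 3 PB and 3 C arrays did not overlap in 13 probes, 10 of them higher in PB (3.38% of all probes) and 3 lower (2.8%). Between PB and V at EV limma called 0 (0.0% of all), with 4 (2.0%, against 1.14% of all) at an unadjusted p below 0.05. The same limit holds here, as the root mean square SD was 0.45 in PB and 0.42 in V at EV. With only these groups in the fit, 5 of the 200 had an unadjusted p below 0.05 and 0 were called. The shares of all probes at that level in the fits of compared groups are not given. The SAM count of 0 was again fixed in the same way. Here 62 of 200 were higher in PB with a median of -0.19, and the arrays did not overlap in 5, all of them lower in PB (5.83% of all probes lay that way and 6.71% the other way).

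At harvest limma called 0 of the 200 probes between PB and C, 0 between V and C and 0 between V and PB (0.0% of all probes in each), with 11, 25 and 31 at an unadjusted p below 0.05. SAM as run here, with 3 arrays against 3, could give only its count of 0 in each. The shares of all grapevine probes at that unadjusted level were 9.16%, 16.7% and 17.7%, above the 5.5%, 12.5% and 15.5% of the 200. In this shared fit the median standard error was larger in the 200 (0.60) than in all probes (0.48). With only the compared groups in the limma fit, 16, 36 and 32 of the 200 had an unadjusted p below 0.05. The shares of all probes in that fit are not given here. PB was higher than C in 137 probes, with a median difference of 0.25, and the arrays did not overlap in 22 probes that were higher in PB (4.0% of all) and 3 that were lower (5.61%). V was higher than C in 25 such probes and lower in 21 (7.93% and 11.4% of all), and V was higher than PB in 14 and lower in 38 (7.77% and 8.86%). None of these separated probes passed the threshold. The random-probe level at H was also highest in PB, at 6.33 ± 0.27 (SD, n = 3) against 6.15 ± 0.22 in C and 5.97 ± 0.06 in V. With it in the model, 7 in place of 11 probes had an unadjusted p below 0.05 for PB against C. The count was 21 in place of 25 for V against C and 10 in place of 31 for V against PB. How the share of all probes moved in that model is not given, so this fall is not particular to the 200. The medians and their signs at each stage were alike with MAD scaling and with quantile normalization. Single arrays moved the counts of calls, which came to 6 for V against PB without PB at H replicate 3, 5 of them higher in V (5.21% of all probes were called), and to 1, higher in V, for V against C without C at H replicate 1 (2.46% of all).

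Whether a treatment difference changed between stages was tested as an interaction. V minus PB at H against the same difference at EV gave 0 calls among the 200 (0.0% of all), with 15 (7.5%, against 7.59% of all) at an unadjusted p below 0.05, and PB minus C at H against BV gave 0 (0.0% of all), with 3 (1.5%, against 4.18%). SAM was not run on these. Data were also simulated for PB against C at H, with noise drawn independently for each probe at its SD pooled over the 8 groups. There limma called 2% of the probes changed by 1, 30% of those changed by 2, 62% of those changed by 3 and 92% of those changed by 4 on the log2 scale. The measured root mean square SD was 0.92 in PB at H and 0.80 in C at H, against 1.01 in C at EV and 0.42 to 0.60 in the other groups. The simulated noise was thus not that of PB and C at H, and these shares may be too high for them.

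The widest harvest difference among the 200 belonged to a probe that was dark in C at H. It read 6.44, 7.08 and 5.88 in C at H, 11.03, 13.23 and 11.28 in PB and 9.22, 11.71 and 12.08 in V, so that the C arrays overlapped with neither treatment. In C it had read 5.89, 6.40 and 5.25 at BV. At EV it had read 8.25, 9.07 and 8.35 in C, 11.01, 12.51 and 7.06 in PB and 7.05, 6.56 and 13.16 in V, so that the PB replicates ran from 7.06 to 12.51 and the V replicates from 6.56 to 13.16. The differences at H were 5.38 for PB and 4.54 for V (standard error 1.36, limma adjusted p = 0.178 and 0.183). In contrast, the probe with the lowest V minus C value at H (-2.72, limma adjusted p = 0.222) had a single dark array, as it read 11.16, 10.20 and 5.58 in V against 10.61, 12.17 and 12.31 in C. The probe with the highest V minus PB value (3.72, limma adjusted p = 0.184) had 2 dark arrays in PB, as it read 6.57, 5.23 and 11.30 in PB, 10.98, 11.54 and 11.75 in V and 11.63, 5.86 and 9.91 in C.

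By the median SD, replicates were less alike in these probes than in the array as a whole before harvest, and more alike at harvest. This SD between replicates had a median of 0.94 over the 200 probes in V at EV and 0.29 over all grapevine probes, and 195 of the 200 exceeded the latter. In PB at EV it was 0.67 against 0.32, in PB at BV 0.63 against 0.32, in C at BV 0.58 against 0.36 and in C at EV 0.80 against 0.68. At H it was 0.44 in C, 0.50 in PB and 0.33 in V, where all probes had 0.51, 0.61 and 0.39. By the root mean square SD the 200 were not more alike in V at H (0.64 against 0.60 over all probes) and about equal to all probes in C at EV (1.03 against 1.01). The same arrays chose the probes, C at EV excepted, so these values are given as a description.

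The spread had a direction that the 200 probes shared. In V at EV replicate 1 was above replicate 2 in 196 of them (49.5% of all grapevine probes), by a median of 1.67, and by at least 1 in 158 (4.81% of all). Replicate 1 was above 3 and 3 above 2 in 145 (18.1% of all). PB at EV replicate 1 was the highest of its group in 148 (33.1% of all), C at EV replicate 1 in 105 (36.0% of all), and C replicate 1 and PB replicate 2 were the lowest 2 arrays at BV in 77 (12.0% of all). The median deviation of the 200 from their group mean was 0.88, -0.83 and -0.12 on the V arrays at EV and 0.49, -0.11 and -0.37 on the PB arrays. At BV it was -0.30, 0.34 and -0.07 in C and 0.30, -0.56 and 0.29 in PB, and on the 9 arrays at H it stayed between -0.17 and 0.19. On the C arrays at EV, which had not been used in the choice, it was 0.29, -0.21 and -0.09, with 65.0%, 40.5% and 44.5% of the 200 above their group mean, against 96.0%, 3.5% and 37.0% on the V arrays at EV. These shares were less uneven on the C arrays than on the V arrays, while the median deviation over all grapevine probes stayed between -0.05 and 0.03 on every array. The random-probe level of the V arrays at EV was 5.95, 5.94 and 5.95 and was all but equal between them.

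Leaving out V at EV replicate 1 changed the median steps to 1.53 and 2.09, and leaving out replicate 2 changed them to 1.94 and 1.78, so that leaving out replicate 2 made the first step the larger at the median. All 200 passed both minimum steps in either case. After the group means were removed, pairs of the 200 probes more than 4 rows apart had a median correlation of 0.301 (quartiles of 0.0827 and 0.497) over 19764 pairs, against 0.00102 (-0.241 and 0.243) over 43365 pairs of sampled grapevine probes. These are correlations over the same 24 arrays, most of which chose the probes, and they are not independent of each other.

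The 200 probes were not scattered singly through the table. They formed 122 runs of consecutive rows, of which 77 held a single probe, 23 held 2, 12 held 3, 9 held 4 and 1 held 5. In all, 123 of the 200 (61.5%) had another of them in the row before or after. The identifiers do not say whether neighbouring rows hold probes of the same transcript. Over all grapevine probes the median correlation within groups was 0.185 for neighbouring rows and 0.0184 at 20 rows apart, and the 78 neighbouring pairs among the 200 had a median of 0.737. The 200 probes are therefore not independent measurements.

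Rows that bordered the runs without being chosen rose as well. There were 238 of them, 124 (52.1%) passed both minimum steps, against 3.55% of all grapevine probes, and their median steps were 0.76 and 0.90. In the 45 runs of at least 2 probes, all probes had the same sign of the difference between PB and V and C at EV in 24. The range of that difference within a run had a median of 0.91, where its SD over the 200 probes was 1.28. The 37 probes called at EV came from 33 runs.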

How the data were processed

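Each array held Cy3-labelled RNA of a berry pool on a NimbleGen array. The authors deposited a normalized fluorescence intensity per probe on a linear scale, and the scanning and normalization software is not given in the sources used here. The array medians of all rows matched (222.72 to 222.76), 137090 of 139363 rows held values, and 0 columns of per-sample values were left unused. Values were log2-transformed and not filtered. Python 3.11.15 (pandas 2.3.3, numpy 2.4.6) applied the selection and R 4.3.3 with limma 3.58.1 fitted a mean for each of the 8 groups to all 117999 grapevine probes (lmFit, eBayes without trend, 16 residual degrees of freedom), with Benjamini-Hochberg adjustment over all of them. The SAM statistic used every label permutation, a false discovery rate of 2% and a 2-fold minimum. The observed labels and their mirror were counted among the permutations. With 3 arrays against 3 this form could not reach the rate, so it could call probes only for PB and V against C at EV. The paper, with its own SAM software at 2%, did report genes that differed between C and PB at harvest. Precision is limited by the number of arrays.

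The selection and the comparisons were set with earlier results of these data known. The probes named by identifier are the 2 with the largest smaller step and, among those called in a comparison, the ones with the largest and the smallest difference, and the probes described without an identifier were chosen after their values were seen. The gene lists laid out for annotated probes were not used, since no table pairs probes with genes, and no probe sequence is shown for the same reason. No pair of arrays was identical (highest correlation 0.979). The limma script was tested on simulated data for PB against C at H with 117999 probes, where it called 0 unchanged probes. Alternatives were median centring with MAD scaling, quantile normalization, filters on dim probes, a fit of the compared groups only, the replicate number as a block, SAM, another threshold, no minimum difference, trend with robust estimation, array weights, the random-probe level as a covariate and leaving out each array.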

Additional observations from a re-analysis of the deposited data

How the results depend on the processing

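The calls between PB and V and C at EV moved with the processing, and harvest comparisons moved with array weights and single arrays. The 37 calls at EV among the 200 probes became 20 with only the compared groups in the fit, 63 at an adjusted p below 0.05, 94 with array weights (which stopped before their convergence tolerance was reached), 0 with the random-probe level added to the model and 17 by SAM, where 26440, 41082, 53880, 6 and 20669 of all grapevine probes were called, and between 12 and 61 on leaving out an array. With array weights V minus PB at H gave 23 calls (20991 of all probes) and its change from EV to H gave 11 (11477 of all). Leaving out an array gave 0 to 6 for V minus PB at H and 0 to 1 for V minus C at H. The probes whose C arrays at EV all lay below PB and V numbered 25 (12.5%, against 16.4% of all grapevine probes). They numbered 16 with MAD scaling, 15 with quantile normalization and 26 to 44 on leaving out a C array. Those with all C arrays above numbered 7 (3.5%, against 14.7% of all), and 12 with MAD scaling and 8 to 32 on leaving out a C array. The shares of all probes under these alternatives are not given here. Ranking by the sum of the steps kept 86 of the 200, and leaving out an array kept 164 to 191. The cause was not tested. VitusP00244099 also missed the threshold with the compared groups only (adjusted p = 0.0338), with the covariate (-1.44, adjusted p = 0.671) and by SAM (0.0316).

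With the replicate number as a block, 32 probes were called at EV (32227 of all) and 0 in every other comparison of the 200. Replicates of the same number correlated in their deviations by between -0.37 and 0.31, with C at EV against PB and V included, and no pair of groups was above 0.1 at every number. In 320 other cases the count stayed within 1.5 times its main value or at 0. For SAM as run here with 3 arrays against 3, 0 was the only possible count. Signal near background at BV limits the first step, and 3 arrays per group limit each difference.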
